A study of Saccharomyces cerevisiae with 4 samples.

Results

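SPS2, SPS22, ECM33 and PST1 of budding yeast (Saccharomyces cerevisiae) encode 4 related proteins of the cell surface, and their transcripts were followed in a strain without the deacetylases Sir2 and Hst1. The members were taken by systematic name, YDR522C, YCL048W, YBR078W and YDR055W in the same order, and make up 4 of the 6690 reading frames listed in each library. All 4 passed the filter on low values, a minimum of 1 FPKM in 2 or more libraries, as did 6370 frames in all. FPKM relates the sequenced fragments of a gene to its length in kilobases and to the fragments of the whole library, so levels of different genes can be set side by side.

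Ecm33 and Pst1 are paralogs that kept a role in growing cells, where they are attached to the plasma membrane and cell wall by a glycosylphosphatidylinositol (GPI) anchor. Ecm33 is needed for normal organisation of the wall of growing cells, and PST1 is known as a target of the cell wall integrity pathway, in which the kinase Slt2 activates the transcription factor Rlm1. Sps2 and Sps22 are a second pair of paralogs, made during sporulation, and act redundantly in organising the beta-glucan layer of the spore wall. Genes of this middle phase of sporulation are held off in growing cells by the repressor Sum1, which recruits Hst1 through Rfm1 and binds a DNA sequence called the middle sporulation element. During meiosis the activator Ndt80 binds the same element.

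Polyadenylated or other RNA selection is not described in the sources used here, and total RNA is the labelled molecule. Cells were growing exponentially in rich glucose medium (YPD) at 30 degrees, with 2 libraries per genotype that the series calls technical replicates. The wild type (WT) was strain LRY3093, of the alpha mating type. The sir2 hst1 mutant, LRY3099, was also alpha and carried hst1D::KanMX and sir2D::TRP1. Both were labelled with ura3-1 and trp1-1, with the further alleles can1-100, lys2D, leu2-3,112 and his3-11, and with HMR replaced (hmr::ura3 in the WT strain, hmrD::ura3 in the mutant), and GAL was listed only for the wild type. Each genotype is represented by 1 strain, so p-values measured the spread between libraries and not between cultures or clones, and effects of the TRP1 or KanMX marker and of the loss of the deacetylases cannot be told apart. The WT libraries had 24.3 and 23.8 FPKM of SIR2 and 58.2 and 57.8 of HST1, and both genes were listed at 0 in both mutant libraries. Of the 4 alpha-cell markers 0 rose and SAG1 fell, against 6.75% and 2.79% of all genes tested (limma, adjusted p under 0.05). Their summed level was 5518 and 5766 FPKM in WT and 4840 and 5508 in the mutant. That of 6 a-cell markers lay between 45.0 and 112 FPKM over the 4 libraries, and 0 of these rose or fell. By limma at an unadjusted p under 0.05, 3 alpha-cell markers were lower and 0 higher, and 2 a-cell markers were higher and 0 lower. The same held for 1925 of all 6370 genes in either direction.

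The upstream sequences of the sporulation pair are shown because both members rose and because both carry a middle sporulation element. The files hold no coordinates and do not state their genome build, so the sequences and positions are those of RefSeq's R64 assembly, matched by systematic name. Each is the 300 bases before the start codon, read 5′ to 3′ on the strand of the gene, chrIV:1485304-1485603 on the minus strand for SPS2 and chrIII:41865-42164 on the plus strand for SPS22. Capitals mark the element, which in both lies in the reverse orientation.
SPS2: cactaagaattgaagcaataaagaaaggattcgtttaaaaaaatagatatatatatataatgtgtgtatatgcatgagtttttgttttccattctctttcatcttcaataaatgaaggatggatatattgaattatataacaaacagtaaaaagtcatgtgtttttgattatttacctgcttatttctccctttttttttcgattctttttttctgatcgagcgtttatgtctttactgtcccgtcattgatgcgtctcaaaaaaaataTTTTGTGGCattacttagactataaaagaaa
SPS22: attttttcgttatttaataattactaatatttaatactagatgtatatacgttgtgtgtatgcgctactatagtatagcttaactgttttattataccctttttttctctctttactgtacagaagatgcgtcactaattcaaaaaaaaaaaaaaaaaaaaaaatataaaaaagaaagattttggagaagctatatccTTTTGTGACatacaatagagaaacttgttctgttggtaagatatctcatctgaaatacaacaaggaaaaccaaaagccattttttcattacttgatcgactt
The element was searched on both strands as GNCACAAAA, GNCACAAAT, GNCGCAAAA or GNCGCAAAT. Read on the opposite strand, the match was GCCACAAAA in SPS2, from 31 to 23 bases before the start codon, and GTCACAAAA in SPS22, from 102 to 94 bases before it. Each match overlaps the shorter core CACAAA, and neither window held a second core. Of 5985 windows of the same length before R64 protein-coding genes, 319 or 5.33% held the element and 19.1% the core. The windows of ECM33 and PST1 held neither sequence, and the Rlm1 consensus, present in 1.19% of windows, was in none of the 4. A match is a property of the sequence only, and the absence of one says nothing of regions farther upstream. The 38 bases of the SPS2 window farthest from the start codon lie inside the neighbouring gene SPS1.

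Both sporulation members rose in the mutant, PST1 fell and ECM33 did not pass the test. SPS2 had 6.09 and 5.26 FPKM in the WT libraries and 32.7 and 29.9 in the mutant libraries. The lowest mutant value was 4.90 times the highest WT value, so the genotypes were well apart. The ratio of means was 5.51, from 5.68 ± 0.591 to 31.3 ± 2.01 FPKM (SD, n = 2 libraries; log2 difference 2.28, SE 0.10, limma adjusted p = 0.000544). In a bulk sample a few cells with much of a transcript and many cells with little of it cannot be told apart.

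SPS22, the paralog that is redundant with SPS2 in spore wall assembly, was listed at 2.04 and 2.26 FPKM in WT and at 26.1 and 23.9 in the mutant. It had the lowest level of the 4 genes in each WT library and the largest ratio of means, 11.6. Its mean went from 2.15 ± 0.152 to 25.0 ± 1.56 FPKM (SD, n = 2; limma log2 difference 3.04, SE 0.10, adjusted p = 0.000224). SPS22 ranked 55 and SPS2 87 among all tested genes ordered from the largest rise.

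ECM33 was the most abundant member, with 2306 and 2302 FPKM in WT and 2515 and 2524 in the mutant. Replicates differed by 0.143% of the mean in WT and by 0.351% in the mutant, and the genotypes did not overlap. The ratio of means was 1.09, which did not pass after adjustment (log2 difference 0.13, SE 0.04, 95% interval 0.03 to 0.23, limma adjusted p = 0.109). The coding sequence of ECM33 is in 2 exons in R64, with an intron of 330 bases after the first 58 coding bases, while the other members have 1 exon each.

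PST1 was listed at 483 and 460 FPKM in WT and at 294 and 281 in the mutant. Both mutant values lay below both WT values. The WT mean was 1.64 times the mutant mean, 471 ± 16.4 against 288 ± 9.16 FPKM (SD, n = 2; limma log2 difference -0.71, SE 0.06, adjusted p = 0.00347). PST1 ranked 48 among tested genes ordered from the largest fall.

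**Figure D1:**
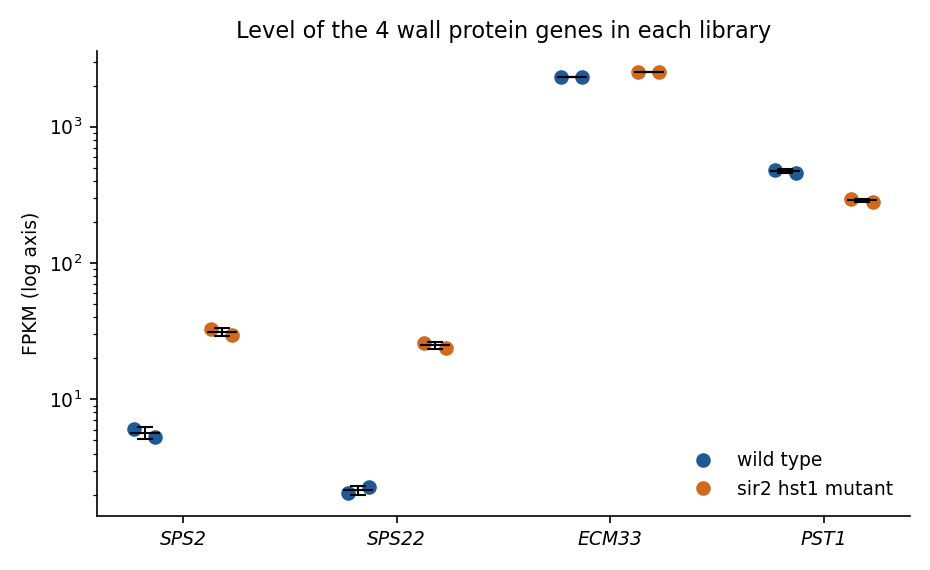
FPKM of the 4 genes on a log axis; points are single libraries, 2 per genotype, and black bars give the mean and SD. SPS2 and SPS22 lie between 2.04 and 6.09 FPKM in WT and between 23.9 and 32.7 in the mutant, ECM33 lies between 2302 and 2524 in all 4 libraries, and PST1 is lower in both mutant libraries.

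The counts of members can be read against those of all genes. Of the 6370 genes tested 430 were higher in the mutant, which is 6.75%, and 178 were lower, which is 2.79% (limma, adjusted p under 0.05 over all genes). Together that is 9.54% of the genes. At an unadjusted p under 0.05 by limma, 1925 of the 6370 differed in either direction. Of the members 2 of 4 were higher and 1 of 4 lower. Values of the genotypes did not overlap in 4 of 4 members, but this held for 62.3% of all genes tested and so is common. Quantile normalization gave 355 genes higher and 294 lower. Without mutant replicate 1 or 2 there were 190 or 184 genes higher, and leaving out WT replicate 1, WT replicate 2, mutant replicate 1 or mutant replicate 2 gave 54, 50, 47 or 83 genes lower. The direction and the call of each of the 4 members held under every one of these alternatives.

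**Figure D2:**
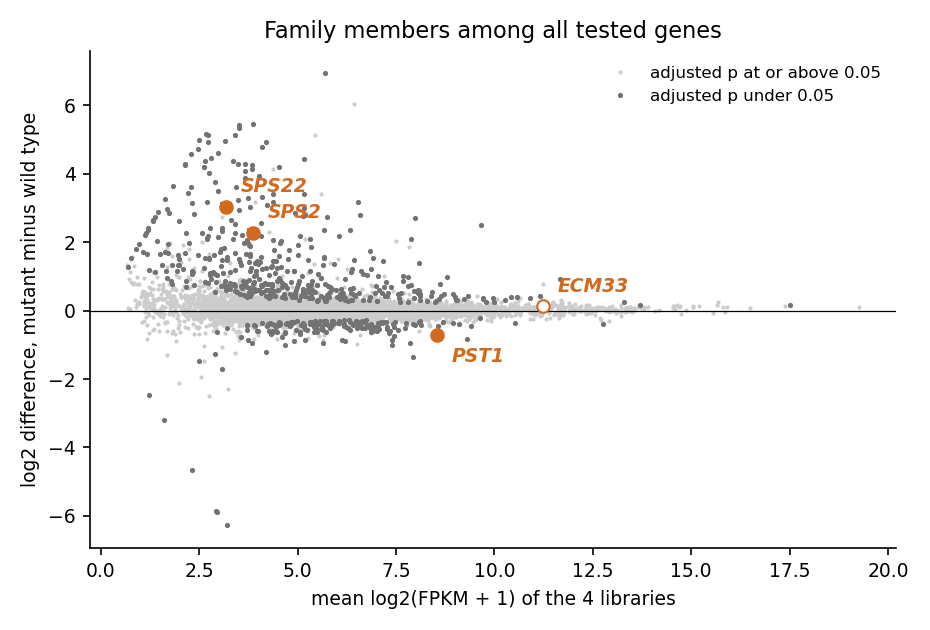
Log2 difference (mutant minus wild type) of log2(FPKM + 1) against the mean log2(FPKM + 1) of the 4 libraries for all 6370 tested genes; grey shades give the call, orange the members, filled where called, with bars for the SE. SPS22 at 3.04 and SPS2 at 2.28 lie among low, strongly raised genes, PST1 lies at -0.71, and ECM33 at 0.13 sits near 0.

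The order of levels was the same in both genotypes, ECM33 first, then PST1, SPS2 and SPS22, and no neighbours in that order overlapped within a genotype. The distances between them changed. SPS2 was at the 13.1 and 12.1 percentile of all listed names in the WT libraries and at the 46.2 and 43.8 percentile in the mutant libraries. SPS22 moved from the 7.74 and 8.28 to the 39.9 and 37.5 percentile. PST1 was at the 92.5 and 92.3 percentile in WT and at 88.4 and 87.7 in the mutant, while ECM33 lay between 97.0 and 97.2 in all 4 libraries. The raised level of SPS2 thus lay a little under the middle of the distribution and that of SPS22 further under it. Both remained far under the vegetative pair.

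Together the 4 genes summed to 2797 and 2770 FPKM in WT and to 2868 and 2858 in the mutant. SPS2 and SPS22 made up 0.291% and 0.271% of that sum in the WT libraries and 2.05% and 1.88% in the mutant libraries. PST1 made up 17.3% and 16.6% of it in WT and 10.3% and 9.83% in the mutant. ECM33 accounted for 82.4% and 83.1% in WT and for 87.7% and 88.3% in the mutant, so it held most of the sum in each library.

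A ratio of FPKM between 2 members of a library is unchanged by any single factor applied to that library. The ratio of SPS2 to SPS22 was 2.98 and 2.33 in the WT libraries and 1.25 in both mutant libraries, so the pair was closer to equal where both were raised. On the log2(FPKM + 1) scale the difference in this ratio was -0.77, mutant minus WT (mean 0.31 against 1.08), and it was -0.30 with a pseudocount of 5 and -1.03 with 0.1. Its size therefore depends on the pseudocount, and after quantile normalization, which is not a single factor per library, it was -0.64. The ratio of PST1 to ECM33 was 0.209 and 0.200 in WT and 0.117 and 0.111 in the mutant, a log2 difference of -0.84. SPS2 against ECM33, one member of each pair, went from 0.00264 and 0.00228 to 0.0130 and 0.0118, a log2 difference of 2.15 (2.04 after quantile normalization). In each of the 3 ratios computed the genotypes did not overlap, and the two-sided exact permutation test gave p = 0.333, raw and adjusted over the 3, which is the smallest that 2 libraries against 2 allow.

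**Figure D3:**
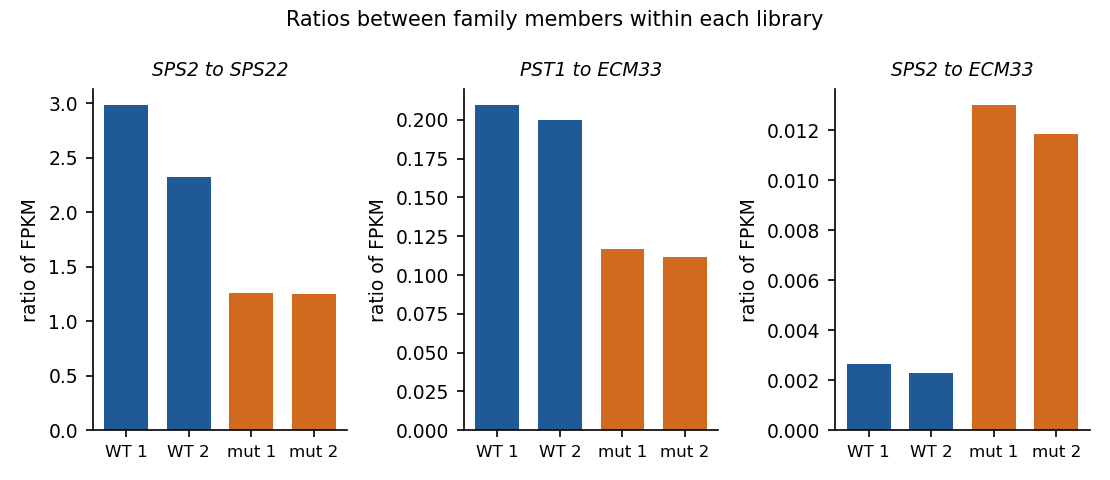
Ratio of FPKM between family members in each library, on linear axes from 0; WT is wild type, mut the mutant, and each bar is 1 library. SPS2 to SPS22 falls from 2.98 and 2.33 to 1.25, PST1 to ECM33 from 0.209 and 0.200 to 0.117 and 0.111, and SPS2 to ECM33 is higher in both mutant libraries.

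No 2 of the 4 genes share an identical coding stretch longer than 14 bases. Aligned over their coding sequences in R64, SPS2 and SPS22 were identical at 62.6% of 1355 aligned bases, and ECM33 and PST1 at 65.0% of 1290. Identity across the pairs lay between 57.4% and 59.6%. The longest identical stretch between SPS2 and SPS22 was 13 bases, TAGAGTTCATCGA, at coding positions 917 and 830, and that between ECM33 and PST1 was 14 bases, TCTTTGAAGTCTGT, at positions 934 and 937. These stretches are shown as the longest exact matches within each pair. How reads were shared between the genes was not tested.

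Genes next to the members, on either strand, were examined, and the use of strand in the authors' quantification is not given. Whether reads of a neighbour were counted for a member was not tested. SPS1, a kinase gene needed for prospore membrane closure and spore packaging, lies 262 bases upstream of SPS2 on the same strand. It went from 2.15 and 2.64 FPKM to 62.6 and 56.3 (log2 difference 4.15, SE 0.11, limma adjusted p = 0.000127). SPS1 was below SPS2 in both WT libraries and above it in both mutant libraries. Its own window held no middle sporulation element and 1 core, from 6 to 1 bases before the start codon. On the other side URC2, 391 bases away, had 12.6 and 13.1 FPKM on average in WT and mutant and did not pass.

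SPS22 also has a neighbour that moved. YCL048W-A, an uncharacterized small reading frame 437 bases upstream on the same strand, was listed at 16.8 and 8.68 FPKM in WT and at 36.6 and 41.0 in the mutant (log2 difference 1.60, SE 0.30, limma adjusted p = 0.0442). Its WT values were far apart, and the call was lost without mutant replicate 1 (adjusted p = 0.129) or 2 (0.143). POF1, an adenylyltransferase gene of nicotinamide riboside salvage, lies 104 bases downstream on the opposite strand and averaged 39.3 and 43.1 FPKM in WT and mutant, which did not pass.

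The genes beside ECM33 and PST1 did not pass. SLM4 and RPG1, on either side of ECM33, averaged 90.2 and 167 FPKM in WT and 89.1 and 151 in the mutant. CDC34 and EMC10, beside PST1, averaged 137 and 205 FPKM in WT and 128 and 197 in the mutant. The log2 differences of these 4 genes lay between -0.15 and -0.02, against -0.71 for PST1.

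**Figure D4:**
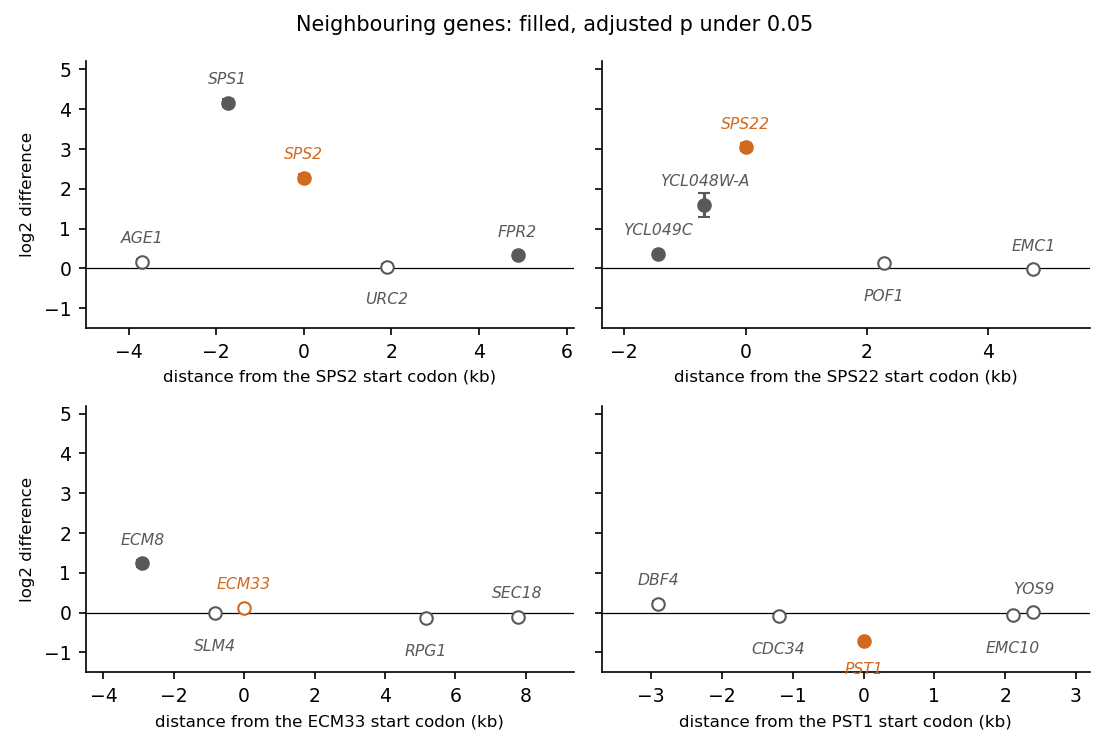
Log2 difference, mutant minus wild type, of each member (orange) and the R64 genes around it against distance between start codons in kilobases, positive in the direction of the member's transcription; bars are SEs and filled points have a limma adjusted p under 0.05. SPS1 at 4.15 stands above SPS2 at 2.28, and YCL048W-A at 1.60 lies upstream of SPS22. FPR2, YCL049C and ECM8, at 0.33, 0.37 and 1.24, are second neighbours that passed, outside the naming rule.

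The genes whose values over the 4 libraries lay nearest to each member, by Euclidean distance of log2(FPKM + 1), give a description of its company. For SPS2 they were MUM3, which acts in spore wall formation (distance 0.41), the RNA-binding protein gene MIP6 (0.42) and CRR1, a spore wall glycosidase gene (0.43). MUM3 went from 7.16 and 6.64 FPKM to 35.9 and 33.4, close to SPS2 in every library. The windows of MUM3, MIP6 and CRR1 each held 1 middle sporulation element, which was in 16.5% of the 381 windows of genes higher in the mutant. For SPS22 the nearest were YNL319W (0.49), a name not in R64, YSW1, a gene expressed in sporulation (0.63), and YOL024W (0.66), and the windows of YSW1 and YOL024W held the core but not the element. YSW1 went from 2.56 and 2.71 FPKM to 34.3 and 32.1.

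Nearest to ECM33 were SSS1, a subunit gene of the Sec61 translocation channel (distance 0.08), and the names YMR307C-A and YDL228C, which are not in R64 (both 0.11). Nearest to PST1 were PNC1, the nicotinamidase gene (0.26), the stress gene DDR2 (0.43) and SLT2, the kinase gene of the integrity pathway (0.50). SLT2 was listed at 380 and 367 FPKM in WT and at 305 and 252 in the mutant and did not pass (log2 difference -0.43, limma adjusted p = 0.0740), although it passed without mutant replicate 1 (adjusted p = 0.0387) and with only R64 names (0.0458).

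Most genes of spore wall assembly rose with SPS2 and SPS22. Of 32 listed and tested, 23 rose and 0 fell, against 6.75% and 2.79% of all genes tested. Among the risers, CDA2 (0.136 and 0.101 FPKM), OSW1 (0.421 and 0.354) and SMA1 (0.935 and 0.419) were under 1 FPKM in both WT libraries. They met the filter only through the mutant libraries, so they could only be higher there and add no support. SPR2 (0.591 and 1.03 in WT) also needed a mutant library to meet it. At an unadjusted p under 0.05 by limma 26 of the 32 were higher and 0 lower, against 1925 of all 6370 genes in either direction. The median log2 difference was 1.94 against -0.01 over all genes tested. The largest rises were in LDS1, a gene of spore lipid droplets, at 5.46, the chitin deacetylase genes CDA2 and CDA1 at 5.13 and 4.94, and the sporulation gene SPR2 at 5.13. The rises of SPS22 and SPS2 therefore fall within the range of this list. The 9 that did not pass were CHS3, DIT2, RRT8, OSW5, OSW7, RRT12, SPO71, SPO73 and SPS100, with log2 differences between -0.11 and 0.32, and CHS3, which makes chitin, also serves growing cells. Without mutant replicate 1 or 2 there were 17 that rose. In those fits CDA2, OSW1 and SMA1 missed the filter and were not tested, so part of the smaller count comes from the filter. The element was found in 14 of the 32 windows, against 5.33% of all windows and 16.5% of the 381 windows of genes higher in the mutant.

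Of 37 genes tested for enzymes and proteins of the vegetative wall, 1 rose and 2 fell, a share near the 9.54% of all genes tested. Their median log2 difference was -0.01. By limma at an unadjusted p under 0.05, 4 were higher and 6 lower, against 1925 of all 6370 genes in either direction. GSC2, which encodes the alternative subunit of beta-1,3-glucan synthase and is also used in sporulation, went from 13.0 and 12.0 FPKM to 26.6 and 26.5 (log2 difference 1.03, limma adjusted p = 0.00232). KNH1, of beta-1,6-glucan synthesis, fell from 41.6 and 40.8 to 24.6 and 25.5 (log2 difference -0.70, adjusted p = 0.00409). SCW11, a glucanase-like gene of daughter cells, fell by 0.34, and this call was lost without any 1 of the 4 libraries, at adjusted p between 0.0790 and 0.193. Without mutant replicate 1 or 2 the list had 4 or 3 genes higher, and 1 gene was lower without WT replicate 1, WT replicate 2 or mutant replicate 1.

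PST1 belongs with the output of the cell wall integrity pathway, and 22 other outputs were listed. Of these 1, again GSC2, rose and 2 fell, against 6.75% and 2.79% of all genes tested, with a median log2 difference of -0.13. NCW2, a GPI-anchored wall protein gene, went from 802 and 772 FPKM to 552 and 600 (log2 difference -0.45, limma adjusted p = 0.0194), and the little-studied YNL058C fell by 0.47 on the log2 scale (adjusted p = 0.0246). At an unadjusted p under 0.05 by limma 8 of the 22 were lower and 1 was higher, against 1925 of all 6370 genes in either direction. The calls of NCW2 (adjusted p between 0.0525 and 0.0827) and YNL058C (between 0.0603 and 0.0839) were lost without WT replicate 1, WT replicate 2 or mutant replicate 1. Without mutant replicate 1 the 1 lower gene was SLT2, which is on both integrity lists, and 2 were higher. There were 4 lower without mutant replicate 2 and 4 with only R64 names. The lowest log2 difference among these 22 genes was -0.66, against -0.71 for PST1, a difference that was not tested.

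Among 19 signalling genes of the pathway 0 rose and 2 fell, against 6.75% and 2.79% of all genes tested, with a median of -0.07. At an unadjusted p under 0.05 by limma 1 was higher and 5 were lower, against 1925 of all 6370 genes in either direction. MTL1, a gene for a sensor-like protein of the cell surface, fell from 60.6 and 58.3 FPKM to 39.0 and 40.5 (log2 difference -0.57, adjusted p = 0.00801), but not without mutant replicate 1 (adjusted p = 0.0525). RLM1, the transcription factor gene, had 43.6 and 44.8 FPKM in WT and 33.5 and 35.7 in the mutant (log2 difference -0.34, adjusted p = 0.0408), and this call was lost without any 1 of the 4 libraries (adjusted p between 0.0743 and 0.188). With each library left out in turn 1 signalling gene was lower, SLT2 without mutant replicate 1 and MTL1 otherwise. It was also 1 without the filter, without the trend or with the replicate block, and 3 with only R64 names.

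**Figure D5:**
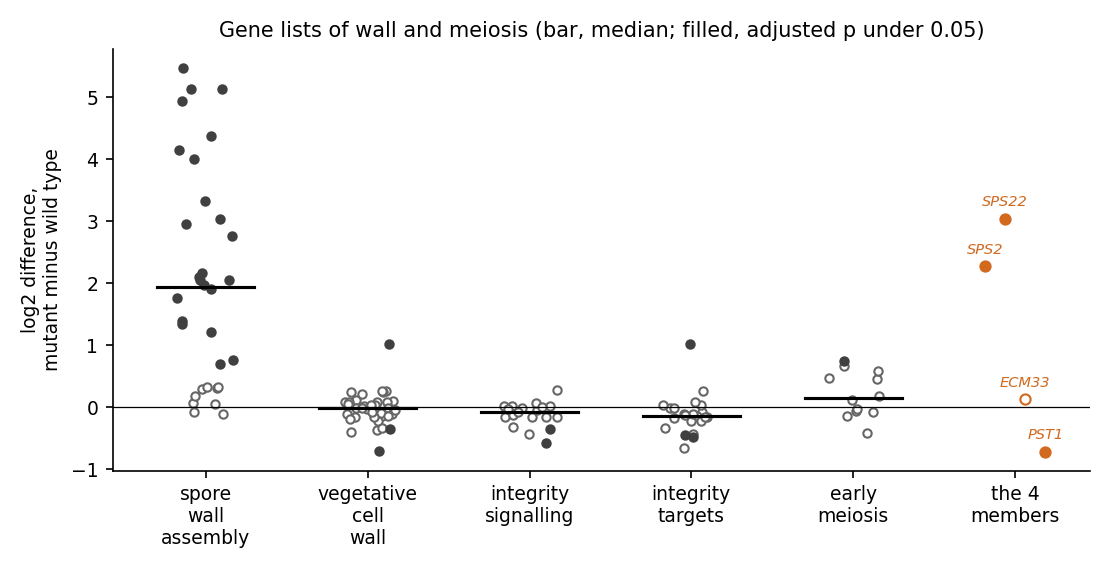
Log2 difference, mutant minus wild type, of each tested gene in 5 lists and of the 4 members (orange); black bars are list medians and filled points have a limma adjusted p under 0.05. The spore wall list has a median of 1.94, and the medians of the other lists lie between -0.13 and 0.15. SPS2 and SPS22 lie above the spore wall median and ECM33 and PST1 below it, with ECM33 inside that list's range of -0.11 to 5.46.

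Apart from RLM1, the genes of the transcriptional regulators did not pass. SUM1 had 22.5 and 24.3 FPKM in WT and 29.5 and 30.5 in the mutant and did not pass (log2 difference 0.34, limma adjusted p = 0.0501), although it passed under 3 of 13 other settings. RFM1 averaged 26.0 and 22.9 FPKM, NDT80 24.6 and 28.4, and SWI4, a cell cycle factor that acts with Slt2, 7.80 and 9.71 in WT and mutant, and none of these 3 passed (by limma; RFM1 was lower and SWI4 higher at an unadjusted p under 0.05). Transcript levels do not measure the activity of these proteins.

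Markers of early meiosis were measured as a sign of cells entering that programme. Of 12 tested, 1 rose and 0 fell, against 6.75% and 2.79% of all genes tested, with a median log2 difference of 0.15. At an unadjusted p under 0.05 by limma 5 were higher and 0 lower, against 1925 of all 6370 genes in either direction. None was listed at 0 in WT. The riser was DMC1, a recombinase gene, from 5.61 and 5.87 to 10.1 and 10.7 FPKM (log2 difference 0.76, adjusted p = 0.0134), and 0 rose without mutant replicate 1 or 2. With only R64 names 4 rose, and 2 rose without the filter or without the trend. The early inducer gene IME1 had 11.4 and 11.1 FPKM in WT and 14.5 and 17.3 in the mutant and did not pass, and the kinase gene IME2 had 11.3 and 10.7 against 11.2 and 8.69. The 12 genes summed to 79.6 and 76.3 FPKM in WT and to 95.8 and 91.6 in the mutant, and their part in the rise of SPS2 and SPS22 was not tested.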

How the data were processed

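TopHat2 2.0.10 and Cuffnorm 2.2.1 are named, per the submitters' processing notes, and the authors deposited 1 FPKM value per reading frame and library. Not given in the sources used here are the genome build, annotation, scaling between libraries, strand and treatment of multiply mapping reads. Of 6690 names 6007 matched RefSeq's R64 annotation, and 683 kept the systematic name. R64 supplied names, neighbours and sequence.

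Genotype was the sole term of a limma fit (version 3.58.1, R 4.3.3) of log2(FPKM + 1), a scale that understates changes of low genes, with eBayes, a mean-variance trend and p-values adjusted by Benjamini-Hochberg over the 6370 genes with at least 1 FPKM in 2 libraries. It was tested on simulated data. Folds are ratios of mean FPKM. Coding sequences were aligned globally with Biopython 1.88.

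Read totals, and so absolute depth, are unknown. Steps among values under 1 FPKM held for between 34.0% and 37.7% of the 53 to 84 low genes used, too few to recover reads. The same steps put the depth of WT replicate 2 and mutant replicates 1 and 2 only roughly. These estimates were 89.1%, 83.3% and 76.7% of WT replicate 1.

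Members, gene lists and tests were chosen with earlier results of these data known, and list counts are descriptions. Named genes were the members, deleted genes, adjacent genes, regulators, the 3 nearest genes per member and up to 4 called genes per list with the largest change. SAG1, IME1, IME2, FPR2, YCL049C, ECM8 and the uncalled spore wall genes were added with their values known. Alternatives were other pseudocounts, filters and scalings, no trend, R64 names only, a replicate block and leaving out each library, with a lone library taken to vary as the other genotype does.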

Additional observations from a re-analysis of the deposited data

How the results depend on the processing

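SPS2, SPS22, PST1 and ECM33 kept their direction and their side of the threshold under all 13 alternatives each. Without 1 library the log2 difference ranged from 2.18 to 2.37 for SPS2 (adjusted p up to 0.0279), from 2.98 to 3.10 for SPS22 (up to 0.0207), from -0.75 to -0.68 for PST1 (up to 0.0353) and stayed at 0.13 for ECM33 (from 0.0988 to 0.502). Under the other settings it ranged from 1.76 to 2.44 for SPS2, from 2.07 to 3.48 for SPS22, from -0.75 to -0.70 for PST1 and from 0.07 to 0.13 for ECM33. The counts over all genes moved more. Higher genes numbered 430 in the reported test, 355 after quantile normalization and 512 with only R64 names, which tests fewer genes. Lower genes numbered 178, 294 and 297 under the same 3 settings. Without 1 library they ranged from 47 to 83 and higher genes from 184 to 377. Samples with the same replicate number did not deviate together over the tested genes as a whole (correlation -0.09). Whether libraries of the same number shared a preparation was not tested. With the replicate block 360 genes were higher and 111 lower. With the block the calls of YCL048W-A (adjusted p = 0.0501), RLM1 (0.0620) and SCW11 (0.0711) were lost. YCL048W-A also missed it with a pseudocount of 0.1 (0.0504), without the filter (0.0672) and without the trend (0.0618), RLM1 without the filter (0.0564) and without the trend (0.0538), and SCW11 without the trend (0.0563). Of the uncalled neighbours, URC2 changed sign after quantile normalization (-0.070), and SLM4 without 1 library ranged from -0.098 to 0.065. The cause was not tested. PNC1 passed in the reported test (adjusted p = 0.00854) but not without WT replicate 1 (0.0638) or 2 (0.0523). Read totals are unknown, so the counting error of SPS22, at 2.04 and 2.26 FPKM in WT, cannot be given.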
